A study of Mus musculus with 30 samples.

Results

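The 9 genes described here mark B lymphocytes and their precursors: Cd79a and Cd79b, Ms4a1, Pax5, Vpreb1, Igll1, Rag1, Dntt and Mzb1. They were taken as a named list of B lineage genes, put together with earlier results of these data known, and they are 9 of the 55416 gene IDs in the count table. All 9 passed the filter on low counts at each of the 4 time points. The study asked how healing of a closed, non-stabilized tibial fracture proceeds in adult mice when Apex1 is silenced in limb mesenchyme. Bulk RNA of the dissected fracture region, called callus here, was sequenced from 30 mice, 1 library per mouse. For 3 days after fracture the paper describes tibia cut out around the fracture, and for 6 days the whole callus. It also calls the earlier samples calluses. The P-Apex1KO mice carried Prrx1-Cre and a pair of conditional Apex1 alleles (Prrx1-Cre;Apex1 C/C). The mice called WT were littermates of 3 kinds, Prrx1-Cre;Apex1 C/+ or Apex1 C/C or Apex1 C/+, so that every mouse carried a conditional allele. Some WT mice may also have carried Cre, since the labels do not give the kind of each sequenced WT mouse. The founders of the conditional line were crossed to C57Bl/6 J mice. Prrx1-Cre acts in limb bud mesenchyme, from which lymphocytes do not derive.

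At 3 days post fracture (3-dpf) there were 4 WT mice (2 females, 2 males) and 4 labelled P-Apex1KO (1 female, 3 males). At 6-dpf there were 5 WT (3 females, 2 males) and 3 P-Apex1KO mice (1 female, 2 males), and at 10-dpf 4 WT (2 females, 2 males) and 3 P-Apex1KO mice (1 female, 2 males). At 14-dpf there were 4 WT mice (1 female, 3 males) and 3 P-Apex1KO mice, which were all female, so that sex and genotype are separated at that time point by the 1 WT female only. Libraries held 18334389 to 43111491 counts on genes. Apex1 was lower in P-Apex1KO callus at 6-dpf (log2 fold change -0.67, adjusted p = 0.0071, edgeR) and 10-dpf (-0.65, adjusted p = 0.0278) and did not pass the test at 3-dpf (-0.15, adjusted p = 0.927) or, with sex in the model, at 14-dpf (-0.29, adjusted p = 0.367). Each P-Apex1KO library held less Apex1 than each WT library at 14-dpf (14.2 to 18.6 against 19.8 to 27.2 CPM), as it did at 6-dpf (15.1 to 15.9 against 20.7 to 28.9 CPM) and 10-dpf (14.0 to 16.8 against 16.95 to 27.5 CPM), an arrangement found for 23.4%, 11.9% and 10.5% of all genes. At 3-dpf the libraries labelled P-Apex1KO held 18.4 to 34.6 CPM of Apex1 with a median of 28.3 CPM, against 26.5 to 33.1 CPM in WT. Replicate 4 of that label held the 34.6 CPM, above all 4 WT libraries, and not all of the others lay below them. Results at 3-dpf are therefore given by label. The genotype test, the change to 6-dpf and the medians of the mature B, precursor and plasma cell marker lists are given with and without replicate 4. Leaving it out does not leave only libraries low in Apex1. Cartilage and osteoblast genes, which define the labelled tissue, were all detected and summed in WT callus at 6-dpf to 37310 to 66169 CPM (counts scaled to a common library size) and to 59246 to 81512 CPM. Each library is 1 mouse, and the tests measure the spread between 3 to 5 mice per group.

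B cells form in bone marrow from lymphoid progenitors. Precursors cut and rejoin their immunoglobulin genes with the RAG recombinase, and terminal transferase, encoded by Dntt, adds bases at the joins. A rearranged heavy chain is first paired with the surrogate light chain, encoded by Vpreb1 and Igll1, until a true light chain takes its place, and the receptor signals through CD79A and CD79B. Pax5 holds cells in the B lineage, Ms4a1 encodes the surface protein CD20 of later stages, and Mzb1 encodes a protein of the endoplasmic reticulum that is abundant in marginal zone B cells and antibody-secreting plasma cells. Rag1 and Dntt are also used by T cell precursors, which rearrange their receptors in the thymus. The tibia contains marrow, and in these bulk samples more cells of a type and more RNA per cell cannot be told apart.

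On GRCm39 (GENCODE M39), Cd79a lies on chromosome 7 at 24596740 to 24601622, Cd79b on chromosome 11 at 106202167 to 106205588, Ms4a1 on chromosome 19 at 11227039 to 11243605 and Pax5 on chromosome 4 at 44524757 to 44710487. Rag1 lies on chromosome 2 at 101468603 to 101479877 and Dntt on chromosome 19 at 41017714 to 41047964. Vpreb1, which the annotation calls Vpreb1a, and Igll1 are neighbours on chromosome 16, at 16686265 to 16688710 and 16678535 to 16681849. All 9 are protein-coding genes. Mzb1 had the fewest reads, 5 to 72 per library, and shares 695 exonic bases with Gm50318 on its own strand, and Rag1 shares 111 with Iftap on its own strand. Reads that fall on both genes of such a pair cannot be told apart, so the level of Mzb1, and to the extent of those bases that of Rag1, is uncertain.

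The table of RefSeq promoters held 6 of the 9 genes, each as the 250 bases before and 50 bases after the start. The promoters were searched on both strands for 4 short motifs that transcription factors of B cells are known to bind. The E-box CAGGTG was present in 4 of the 6, those of Cd79a, Rag1, Vpreb1 and Igll1, against 20.3% of the 32544 promoters in the table. The motif of the early B cell factor EBF1 (TCCC and GGGA with any 2 bases between) was in 0 of the 6 (0.913% of all promoters), the octamer ATGCAAAT in 0 (1.75%) and the ETS sequence GAGGAAGT in 0 (3.11%). These are exact matches of a single spelling per motif in one window and not measured binding. A site spelled otherwise would be missed, so 0 matches does not show that a promoter lacks a site for the factor. The 4 promoters with the E-box are printed 5′ to 3′ on the strand of the gene, with the E-box in capitals (CACCTG is CAGGTG on the other strand). They were found at single positions on GRCm39, chr7:24596672-24596971 (plus strand) for Cd79a, chr2:101479828-101480127 (minus) for Rag1, chr16:16687070-16687369 (minus) for Vpreb1 and chr16:16681800-16682099 (minus) for Igll1. Vpreb2, at chr16:17798179-17798478 (plus), is shown because it is a near-identical copy of Vpreb1, with which it shares read sequences.
Cd79a: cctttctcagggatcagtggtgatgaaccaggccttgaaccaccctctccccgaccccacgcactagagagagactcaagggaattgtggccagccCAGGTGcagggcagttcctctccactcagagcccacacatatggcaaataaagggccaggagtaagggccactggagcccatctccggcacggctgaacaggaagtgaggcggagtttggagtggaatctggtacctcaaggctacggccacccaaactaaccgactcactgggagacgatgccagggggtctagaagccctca
Rag1: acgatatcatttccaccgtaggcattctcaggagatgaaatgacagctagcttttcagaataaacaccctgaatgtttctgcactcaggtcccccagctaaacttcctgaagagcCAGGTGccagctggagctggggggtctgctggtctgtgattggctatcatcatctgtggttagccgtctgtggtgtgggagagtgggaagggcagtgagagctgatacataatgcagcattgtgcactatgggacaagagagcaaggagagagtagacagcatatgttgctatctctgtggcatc
Vpreb1: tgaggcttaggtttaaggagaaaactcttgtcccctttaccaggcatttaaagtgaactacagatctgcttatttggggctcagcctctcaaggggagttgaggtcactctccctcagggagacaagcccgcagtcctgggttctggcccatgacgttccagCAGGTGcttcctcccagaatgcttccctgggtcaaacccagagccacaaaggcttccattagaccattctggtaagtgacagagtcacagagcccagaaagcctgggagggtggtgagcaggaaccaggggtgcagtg
Igll1: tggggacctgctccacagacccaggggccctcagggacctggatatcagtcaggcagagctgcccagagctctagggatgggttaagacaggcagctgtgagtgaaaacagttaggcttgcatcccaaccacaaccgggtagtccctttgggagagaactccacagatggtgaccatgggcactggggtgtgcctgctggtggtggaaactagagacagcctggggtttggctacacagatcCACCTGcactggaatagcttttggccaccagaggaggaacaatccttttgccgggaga
Vpreb2: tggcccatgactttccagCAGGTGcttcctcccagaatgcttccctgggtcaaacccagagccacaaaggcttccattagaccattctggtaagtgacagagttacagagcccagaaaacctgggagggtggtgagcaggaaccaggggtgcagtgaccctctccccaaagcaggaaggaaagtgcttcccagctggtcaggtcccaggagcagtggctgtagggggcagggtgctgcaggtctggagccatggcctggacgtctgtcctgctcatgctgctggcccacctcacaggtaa

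The window of Vpreb1 and that of Vpreb2 share an unbroken run of 91 bases, which contains the E-box of both. The transcripts were 94.1% identical over their alignment, and 25.7% of the read-length windows of Vpreb1 also occurred in Vpreb2. Reads that map to more than 1 place were not counted, so reads of that part of Vpreb1 could be missing from its count. Reads were sequenced in pairs, and the size of such a loss was not tested. Vpreb2 held 0 to 26 counts per library, and its level did not exceed 1.25 CPM in any library.

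Across the callus libraries the receptor chains were the most abundant of the 9 genes per kilobase of exon. In WT callus at 14-dpf Cd79b stood at 14.3 ± 2.38 CPM per kilobase (SD, n = 4) and Cd79a at 11.9 ± 2.28, which is within their spread. Pax5 (3.77 ± 0.744), Dntt (3.45 ± 0.926), Ms4a1 (3.25 ± 0.640) and Rag1 (2.92 ± 0.636 CPM per kilobase) followed within each other's spread. Vpreb1 (1.68 ± 0.253) and Igll1 (1.60 ± 0.223 CPM per kilobase) did not differ beyond their spread, and Mzb1 was lowest at 0.302 ± 0.0810. Cd79b had the highest and Cd79a the next mean level per kilobase of the 9 genes in all 8 groups, and Mzb1 had the lowest in all 8. Between the other genes the ranks changed from group to group.

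**Figure D1:**
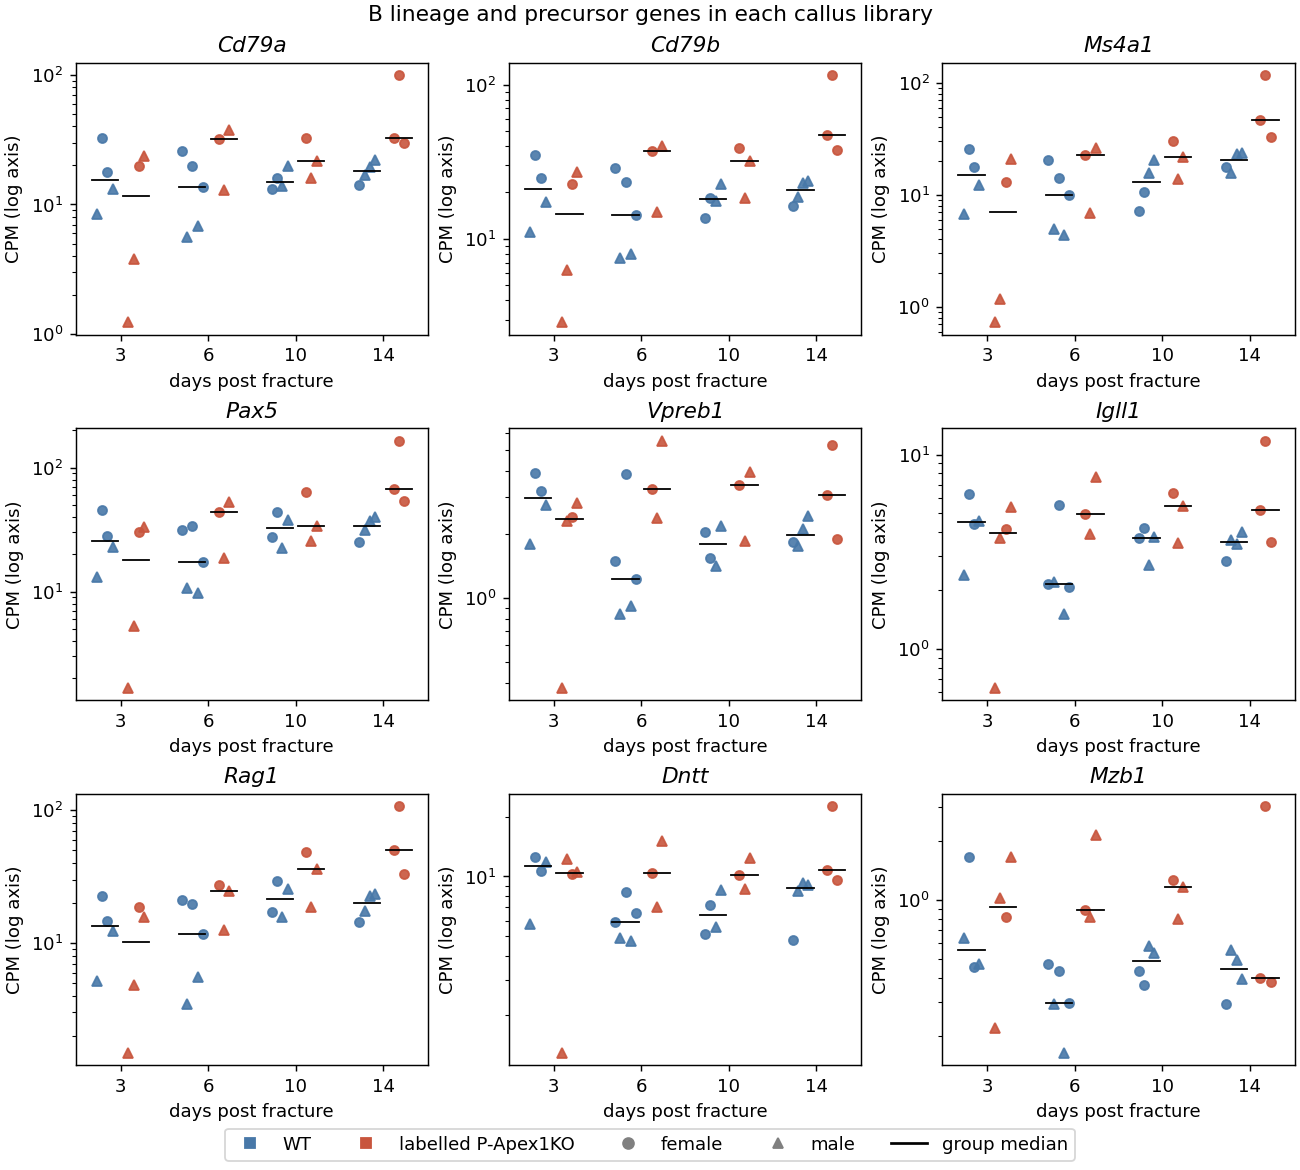
Each panel shows one gene, with CPM (log axis) of every library against days post fracture. Circles are females and triangles males, blue is WT and red the label P-Apex1KO, and black lines are group medians. The red points lie mostly above the blue ones at 6-, 10- and 14-dpf, while at 3-dpf replicates 1 and 2 of the label P-Apex1KO lie lowest for Cd79a, Cd79b, Ms4a1 and Pax5.

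At 3-dpf no difference between the labels was detected for any of the 9 genes. Log2 fold changes ran from -0.48 for Ms4a1 to 0.37 for Mzb1 (standard errors 0.52 to 1.01, adjusted p 0.930 to 0.981, edgeR, with sex as a term). edgeR called 0 of 9 members, DESeq2 called 0 and 0 had an unadjusted p under 0.05 (6.12% of all genes did), while 0% of the 19866 genes tested were called by edgeR and 0.428% by DESeq2. The libraries within a label were far apart. Cd79a stood at 8.46, 32.3, 17.9 and 13.2 CPM in WT replicates 1 to 4 and at 1.23, 3.78, 19.7 and 23.8 CPM in the libraries labelled P-Apex1KO replicates 1 to 4. The ranges overlapped, and 2 of the 4 libraries labelled P-Apex1KO lay below every WT library. Ms4a1 followed the same order, with 6.69, 25.7, 17.8 and 12.2 CPM in WT and 0.726, 1.19, 12.9 and 20.7 CPM in the libraries labelled P-Apex1KO.

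The 2 low libraries were not alike. In replicate 1 of the label P-Apex1KO the precursor genes were low as well, with Dntt at 1.29 CPM and Vpreb1 at 0.379 CPM, against 10.3 to 12.3 CPM and 2.31 to 2.83 CPM in replicates 2 to 4. In replicate 2 Dntt stood at 12.3 CPM, close to the highest WT library (12.5 CPM), beside 1.19 CPM of Ms4a1. Marker lists of other cells differed between the 2 libraries in the same way. The erythroid and granulocyte precursor genes summed to 250.2 and 1099 CPM in replicate 1 and to 2651 and 8405 CPM in replicate 2, against 330.4 to 2614 CPM and 3694 to 6087 CPM in WT. Their part in the levels of the B lineage genes was not tested. When replicates 1 and 2 were left out, which was decided with their values known, 8 of 9 log2 fold changes were above 0 (-0.11 to 0.67) and edgeR called 0 of 9, against 0.00513% of all genes. Without replicate 4, which held the high level of Apex1, all 9 were below 0 (-2.05 to -0.06) and edgeR called 0 of 9, against 0.0504% of all genes.

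At 6-dpf 4 of the 9 genes were higher in P-Apex1KO callus: Mzb1, Rag1, Cd79b and Dntt (adjusted p under 0.05 in the same test), against 5.31% of the 20260 genes tested that were called higher. The other 5 had positive log2 fold changes of 1.21 to 1.50 with adjusted p of 0.0502 to 0.102, and all 9 were higher at an unadjusted p under 0.05, as were 13.8% of all genes. Mzb1 stood at 0.469, 0.293, 0.435, 0.164 and 0.298 CPM in WT replicates 1 to 5 and at 0.889, 0.816 and 2.17 CPM in P-Apex1KO replicates 1 to 3. Each P-Apex1KO library lay above each WT library, an arrangement found for 8.71% of all genes tested and for no other of the 9 at this time, on 5 to 18 reads per WT library and 26 to 72 reads per P-Apex1KO library. The log2 fold change of Mzb1 was 2.01 ± 0.50 (SE, adjusted p = 0.0331, edgeR).

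Rag1, one of the 2 chains of the recombinase, stood at 21.1, 3.45, 19.5, 5.59 and 11.8 CPM in WT and at 27.6, 12.5 and 24.7 CPM in P-Apex1KO callus. P-Apex1KO replicates 1 and 3 lay above all WT libraries, and replicate 2 lay among them. Its log2 fold change was 1.48 ± 0.37 (SE, adjusted p = 0.0369, edgeR). Dntt, the terminal transferase, stood at 5.88, 4.88, 8.37, 4.74 and 6.56 CPM in WT and at 10.4, 7.02 and 15.1 CPM in P-Apex1KO callus. Here 2 of 3 P-Apex1KO libraries lay above the WT range, and the log2 fold change was 0.96 ± 0.26 (SE, adjusted p = 0.0435, edgeR). Cd79b, the receptor chain, stood at 29.0, 7.55, 23.4, 7.99 and 14.4 CPM in WT and at 37.2, 15.01 and 39.9 CPM in P-Apex1KO callus, a log2 fold change of 1.39 ± 0.38 (SE, adjusted p = 0.0459, edgeR). Its partner Cd79a had nearly the same estimate, 1.48 ± 0.41, and an adjusted p of 0.0502 in edgeR.

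The genes that did not pass at 6-dpf were Cd79a, Ms4a1 (1.34 ± 0.46, adjusted p = 0.0989, edgeR), Pax5 (1.36 ± 0.39, adjusted p = 0.0576), Vpreb1 (1.50 ± 0.52, adjusted p = 0.100) and Igll1 (1.21 ± 0.43, adjusted p = 0.102). Pax5 ranged from 9.73 to 33.9 CPM in WT and from 18.5 to 52.6 CPM in P-Apex1KO callus. The surrogate light chain genes ranged from 0.846 to 3.87 CPM (Vpreb1) and 1.51 to 5.51 CPM (Igll1) in WT and from 2.39 to 5.53 and 3.90 to 7.64 CPM in P-Apex1KO callus, so that WT replicate 3 overlapped them. Leaving out single mice changed the count of 4. Without WT replicate 2, 4 or 5, or P-Apex1KO replicate 3, edgeR called 0 of 9 genes, against 1.71%, 1.83%, 4.39% and 3.74% of all genes called higher, and without P-Apex1KO replicate 2 it called 6, against 4.84%. Without WT replicate 1 or 3 it called 4 genes each (5.99% and 3.3% of all genes) and without P-Apex1KO replicate 1 it called 3 (2.31%). All 9 log2 fold changes stayed above 0 in the fits that called 0, at 0.91 to 1.96 without WT replicate 2, 0.87 to 1.67 without replicate 4, 0.98 to 2.00 without replicate 5 and 0.59 to 1.46 without P-Apex1KO replicate 3. DESeq2 called 8 of 9, all but Ms4a1, against 8.14% of all genes called higher. With no sex term edgeR called Dntt and Mzb1 only, against 6.76% of all genes, and the same 2 with no filter on low counts, against 3.09%. With at least 10 counts required in every sample Mzb1 was not tested, and edgeR called Cd79a, Cd79b, Rag1 and Dntt, against 6.55% of all genes. With all 30 samples in one model it called Mzb1 only (5.76% of all genes) and with a replicate block in place of sex Pax5 only (1.25%). Scaled by library size alone the fit called 6, with Cd79a and Pax5 added, while 13.7% of all genes were called higher.

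The levels were also compared between the sexes, since sex is a term of the model. At 6-dpf the 3 WT females held 13.5 to 25.9 CPM of Cd79a and the 2 WT males 5.66 and 6.81 CPM. At 3-dpf the 2 WT females held 17.9 and 32.3 CPM and the 2 males 8.46 and 13.2 CPM. The female and male ranges did not overlap for 8 of 9 genes at 6-dpf (all but Igll1) and for 6 of 9 at 3-dpf, with the females higher in each case, an arrangement that 9.16% of all genes showed at 6-dpf and 20.4% at 3-dpf. At 10-dpf each WT female was above each WT male for 0 of 9 genes (26.6% of all genes), and each male was above each female for Ms4a1 (15.8 to 20.4 against 7.18 to 10.5 CPM) and Mzb1 (0.538 to 0.578 against 0.366 to 0.432 CPM), an arrangement that 23.2% of all genes showed. At 14-dpf the 1 WT female was above each WT male for 0 of 9 genes and below each for 7 of 9, and each of these arrangements held for 30.9% of all genes. Of the P-Apex1KO libraries at 6-dpf the higher male was above the 1 female for 8 of 9 genes, all but Rag1 (Cd79a 37.2 against 32.1 CPM), and 71.4% of all genes were in that arrangement, so that it was the common one. At 3-dpf the highest male labelled P-Apex1KO was above the female for 8 of 9 genes (78.3% of all genes), but in most of them this male was replicate 4, whose Apex1 went against its label. Its Cd79a level was 23.8 CPM, beside 19.7 CPM in the female and 1.23 and 3.78 CPM in the other males, and without it the highest male was above the female for Dntt and Mzb1 only, against 70.8% of all genes. In the fits used here the male minus female log2 difference of Cd79a at 6-dpf was -1.20 ± 0.41 (SE, unadjusted p = 0.0166, adjusted p = 0.990, edgeR), a comparison made after the data were seen. No member passed the threshold for sex at any time point, against 0.0101% to 0.0582% of all genes called. At 6-dpf 2 of the 3 P-Apex1KO mice were males and 3 of the 5 WT mice females, and the genotype difference of Rag1 was 0.83 on the log2 scale with no sex term and 1.48 with it.

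**Figure D2:**
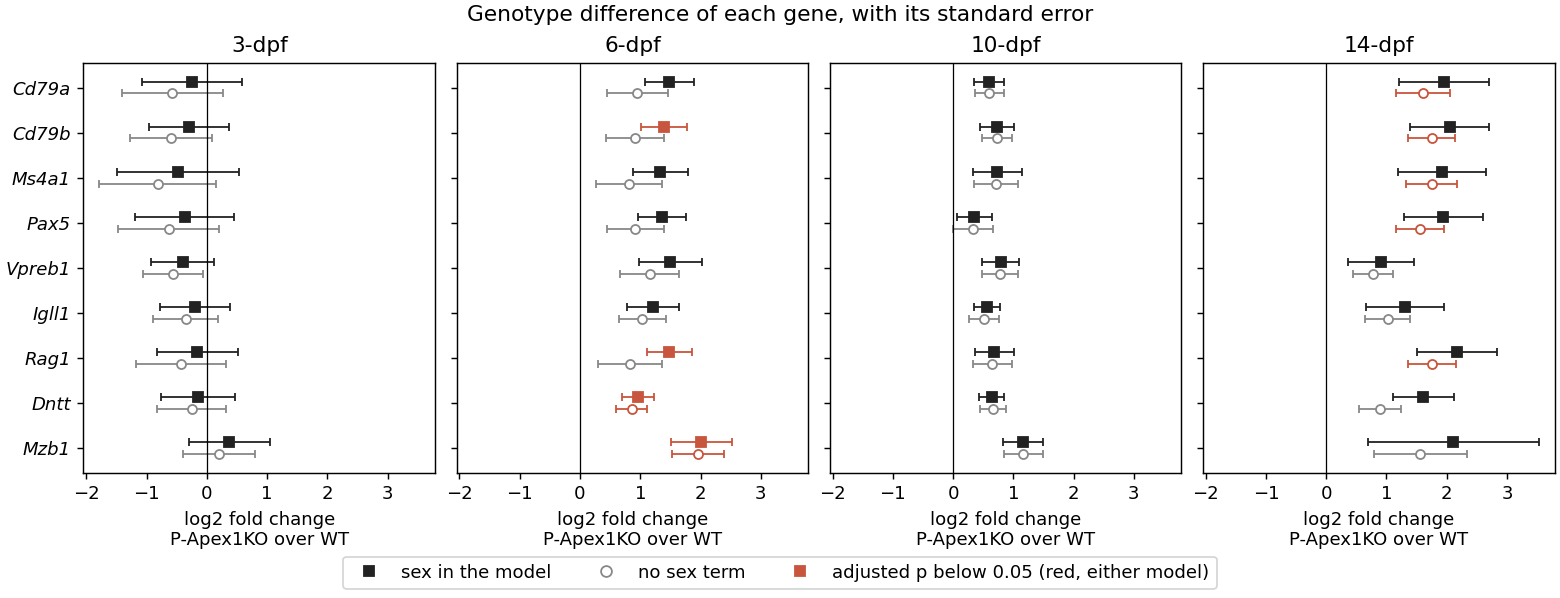
Log2 fold change of P-Apex1KO over WT for each gene (rows) at each time point (panels), with standard errors as bars. Filled squares are fits with sex in the model, open circles fits without it, and red marks an adjusted p under 0.05. All estimates at 6-, 10- and 14-dpf are above 0, from 0.35 to 2.17 with sex in the model, and red marks 4 squares and 2 circles at 6-dpf and 5 circles at 14-dpf.

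At 10-dpf all 9 genes had positive log2 fold changes, 0.35 for Pax5 to 1.16 for Mzb1, and 0 of 9 were called by edgeR (adjusted p 0.0766 to 0.53), against 3.01% of the 18910 genes tested that were called higher. Of the 9, 6 were higher at an unadjusted p under 0.05, as were 12.9% of all genes, and DESeq2 called Cd79b alone, against 6.33% of all genes. With no filter on low counts edgeR called Dntt (2.9% of all genes), without WT replicate 4 Cd79a and Dntt (5.38%) and without P-Apex1KO replicate 2 Cd79b (3.49%), and with a replicate block it called 0 (3.78%). Mzb1 stood at 0.432, 0.366, 0.578 and 0.538 CPM in WT replicates 1 to 4 and at 1.26, 0.803 and 1.17 CPM in P-Apex1KO replicates 1 to 3. Dntt stood at 5.13, 7.22, 5.56 and 8.57 CPM in WT and at 10.2, 8.66 and 12.4 CPM in P-Apex1KO callus. For these 2 genes each P-Apex1KO library lay above each WT library, which held for 8.79% of all genes tested. The other 7 overlapped, with Cd79a at 13.1 to 19.9 CPM in WT and 16.1 to 32.8 CPM in P-Apex1KO callus. P-Apex1KO replicate 1, the only female of its group, was highest for Cd79a, Cd79b, Ms4a1, Pax5, Igll1, Rag1 and Mzb1, and without it the estimates of Ms4a1 and Pax5 were -0.04 and -0.03, with 0 of 9 called, against 0.113% of all genes.

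At 14-dpf the P-Apex1KO libraries lay above all WT libraries for 6 of the 9 genes, Cd79a, Cd79b, Ms4a1, Pax5, Rag1 and Dntt, an arrangement that held for 18.5% of the 20228 genes tested. With sex in the model the log2 fold changes ran from 0.91 for Vpreb1 to 2.17 for Rag1 and edgeR called 0 of 9 (adjusted p 0.0871 to 0.379), against 4.28% of genes called higher. Of the 9, 6 were higher at an unadjusted p under 0.05, again beside 12.9% of all genes, and DESeq2 with sex called Cd79b, Pax5, Rag1 and Dntt, against 7.12% of genes. Cd79a stood at 14.1, 16.9, 19.5 and 22.2 CPM in WT replicates 1 to 4 and at 32.5, 98.9 and 29.7 CPM in P-Apex1KO replicates 1 to 3. The lowest P-Apex1KO library was above the highest WT library, and replicate 2 stood far above both other P-Apex1KO libraries. The log2 fold change of Cd79a was 1.96 ± 0.75 (SE, adjusted p = 0.148, edgeR).

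Ms4a1 stood at 17.6, 15.8, 23.3 and 23.6 CPM in WT and at 46.9, 117 and 32.8 CPM in P-Apex1KO callus. Pax5 stood at 25.3, 31.2, 37.0 and 40.2 CPM in WT and at 66.9, 165 and 53.9 CPM in P-Apex1KO callus. In both genes, too, replicate 2 was the highest of all 30 libraries. Rag1 stood at 14.4, 17.5, 22.6 and 23.3 CPM in WT and at 50.2, 108 and 33.0 CPM in P-Apex1KO callus, and its log2 fold change of 2.17 ± 0.67 had an adjusted p of 0.0871 in edgeR. The 2 surrogate light chain genes differed less and overlapped, with Vpreb1 at 1.76 to 2.45 CPM in WT and 1.90 to 5.29 CPM in P-Apex1KO callus. Mzb1 stood at 0.292, 0.557, 0.495 and 0.393 CPM in WT and at 0.397, 3.03 and 0.381 CPM in P-Apex1KO callus, so that its log2 fold change of 2.11 ± 1.42 rested on replicate 2.

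Leaving out P-Apex1KO replicate 2 lowered the estimates and their errors at 14-dpf. Without it the log2 fold change of Cd79a was 1.16 ± 0.18 (SE, adjusted p = 0.0037, edgeR with sex), and edgeR called 6 of 9, the same 6 genes whose libraries did not overlap, against 8.32% of all genes called higher. Without P-Apex1KO replicate 3 it called Cd79b and Rag1, against 4.65%, and without WT replicate 2 it called 0, against 2% of all genes. It also called 0 with a replicate block (6.66%) and when scaled by library size alone (9.28%). With all 30 samples in one model the 9 log2 fold changes were 0.44 to 1.44, against 0.91 to 2.17 in the main fit. Their adjusted p in that model was 0.134 to 0.584 (edgeR). With no sex term and all mice edgeR called 5 of 9, Cd79a, Cd79b, Ms4a1, Pax5 and Rag1, against 18.8% of all genes, with log2 fold changes of 1.56 to 1.75 for these 5. In that model it called 3 without WT replicate 2 (12.6% of all genes), 5 without P-Apex1KO replicate 1 (18.3%) and 7 without P-Apex1KO replicate 3 (15.1%). The WT female, against which the sex-adjusted difference is set, was the lowest of the 4 WT mice for Cd79a, Cd79b, Pax5, Igll1, Rag1, Dntt and Mzb1. Its Dntt level was 4.77 CPM beside 8.45 to 9.31 CPM in the WT males. With 1 WT female, sex and genotype cannot be told apart further in this group.

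The change of the genotype difference between time points was tested directly. From 3- to 6-dpf it was positive for all 9 genes, 1.16 for Dntt to 1.86 for Vpreb1 on the log2 scale, and edgeR called 0 of 9 (adjusted p 0.294 to 0.572), against 0.318% of 20468 genes called higher. Of the 9, 3 had a positive change at an unadjusted p under 0.05, beside 5.48% of all genes, and DESeq2 called 0, against 0.962% of all genes. From 10- to 14-dpf it ran from -0.03 for Vpreb1 to 1.17 for Ms4a1, with 0 of 9 called by edgeR (adjusted p 0.492 to 0.988), 0 at an unadjusted p under 0.05 (13.1% of all genes) and 0 called by DESeq2, against 0.0406% (edgeR) and 0.589% (DESeq2) of 19705 genes called higher. Without the 3-dpf library labelled P-Apex1KO replicate 4 the estimates from 3- to 6-dpf ran from 1.32 to 3.47, and without P-Apex1KO replicate 3 of 6-dpf from 0.72 to 1.27, with 0 of 9 called in each (lowest adjusted p 0.0678 and 0.673, edgeR), against 0.358% and 0.105% of all genes called higher. An estimate past the threshold at 6-dpf and not at 3-dpf is therefore not shown to differ between these days.

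Within a genotype no member passed the test for time when all libraries were used. From 3- to 6-dpf all 9 estimates were below 0 in WT callus, from -1.31 for Mzb1 (adjusted p = 0.0878, edgeR) to -0.45 for Rag1, and above 0 in the libraries labelled P-Apex1KO, from 0.34 for Dntt to 1.21 for Cd79a. Over the same interval 30.5% of all genes tested were called in WT and 14% in P-Apex1KO callus. Of the 9 genes 1 was lower at an unadjusted p under 0.05 in WT (20.8% of all genes) and 0 passed it in P-Apex1KO callus (28.4% in either direction). The P-Apex1KO change was fitted again with only 1 library left out, the 3-dpf library labelled replicate 4. Without it, an alternative added after the data were seen, the 9 estimates ran from 0.50 for Dntt to 2.65 for Ms4a1, and edgeR called Cd79a (2.34, adjusted p = 0.0262), Cd79b (1.93, adjusted p = 0.0224), Ms4a1 (adjusted p = 0.0269), Pax5 (2.23, adjusted p = 0.0423) and Rag1 (1.85, adjusted p = 0.0462) higher at 6-dpf, 5 of 9 against 12.5% of all genes called in either direction. From 10- to 14-dpf the WT estimates ran from -0.21 for Mzb1 to 0.53 for Ms4a1, and the P-Apex1KO estimates from 0.14 for Vpreb1 to 1.70 for Ms4a1 (adjusted p = 0.197, edgeR), while 11.1% and 0.259% of all genes were called. In P-Apex1KO callus 3 of the 9 were higher at an unadjusted p under 0.05 over this interval (5.54% of all genes), and in WT 0 passed it (25.4% in either direction). These comparisons share their libraries with the genotype comparisons of the same days. The paper describes the tissue taken at 3-dpf and at 6-dpf differently, and the part of this in the changes was not tested.

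Stages of the lineage were compared within each library by dividing the summed counts of Vpreb1, Igll1 and Dntt by those of Cd79a, Cd79b and Ms4a1. The sums are called precursor and mature reads as names only, since Cd79a and Cd79b also serve the receptor of precursors. This ratio does not depend on how much of a library comes from B lineage cells as a whole. At 14-dpf it was 0.196, 0.268, 0.227 and 0.224 in WT replicates 1 to 4 and 0.151, 0.120 and 0.150 in P-Apex1KO replicates 1 to 3. Each P-Apex1KO library lay below each WT library. All 3 P-Apex1KO mice were female, and the only WT female, replicate 1, had the lowest WT ratio. With 1 WT female, sex and genotype cannot be told apart further in this order. The order rested on leaving out Rag1, which precursors also use: with Rag1 reads added to the precursor sum the ratio was 0.495, 0.608, 0.570 and 0.560 in WT and 0.549, 0.447 and 0.479 in P-Apex1KO callus, and the groups overlapped. Reads of Rag1 alone per mature read were 0.299 to 0.344 in WT and 0.326 to 0.398 in P-Apex1KO callus. At 6-dpf the ratio overlapped, 0.126 to 0.436 in WT and 0.203 to 0.384 in P-Apex1KO callus, as it did at 10-dpf (0.205 to 0.322 and 0.196 to 0.291). At 3-dpf the library labelled P-Apex1KO replicate 2 stood alone at 1.63, on 588 precursor and 360 mature reads, against 0.244 to 0.477 in the other 7 libraries. Reads of Dntt per read of Ms4a1 also overlapped at 14-dpf, 0.271 to 0.534 in WT and 0.194 to 0.293 in P-Apex1KO callus. All forms of the ratio were defined after the values of the genes were known and were not tested.

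**Figure D3:**
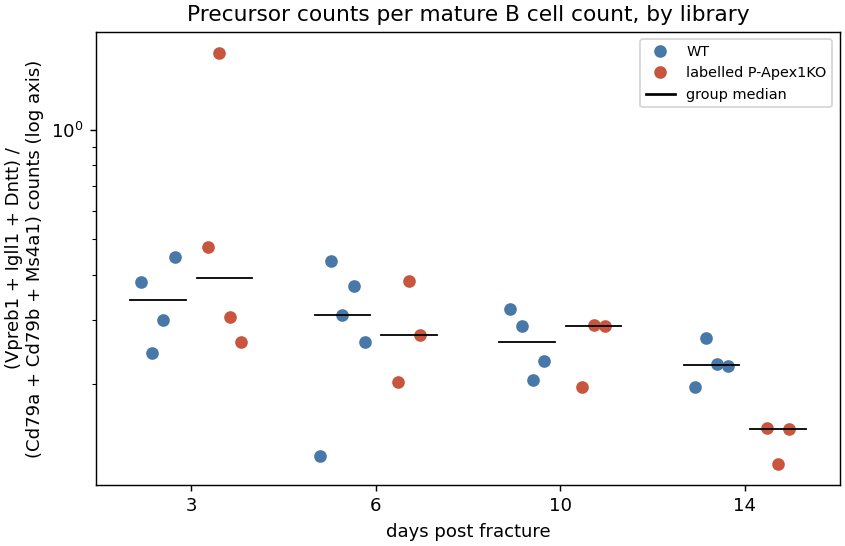
Reads of Vpreb1, Igll1 and Dntt per read of Cd79a, Cd79b and Ms4a1 in each library (log axis) against days post fracture, WT in blue and the label P-Apex1KO in red, with group medians as black lines. At 14-dpf the 3 P-Apex1KO libraries (0.120 to 0.151) lie below the 4 WT libraries (0.196 to 0.268), an order that is lost when Rag1, not plotted here, is added to the precursor reads, and 1 library at 3-dpf stands at 1.63. The 3 P-Apex1KO mice at 14-dpf were all female, and the lowest WT ratio was that of the only WT female.

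Across the 30 libraries the genes fell into sets by how their log2 CPM varied together. Cd79a correlated with Cd79b at a Pearson r of 0.985, with Pax5 at 0.978 and with Ms4a1 at 0.963. Rag1, a gene of precursors, varied with these (0.961 with Pax5) more than with Dntt (0.73) or Vpreb1 (0.75). Vpreb1 and Igll1, the 2 parts of the surrogate light chain, correlated at 0.951 and Igll1 with Dntt at 0.916. Mzb1 was the least like the others, from 0.452 with Ms4a1 to 0.76 with Igll1, on few reads. The 30 libraries differ in genotype, time, depth and series of sample names and may differ in the amount of marrow in the dissected tissue, so these correlations are descriptions.

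**Figure D4:**
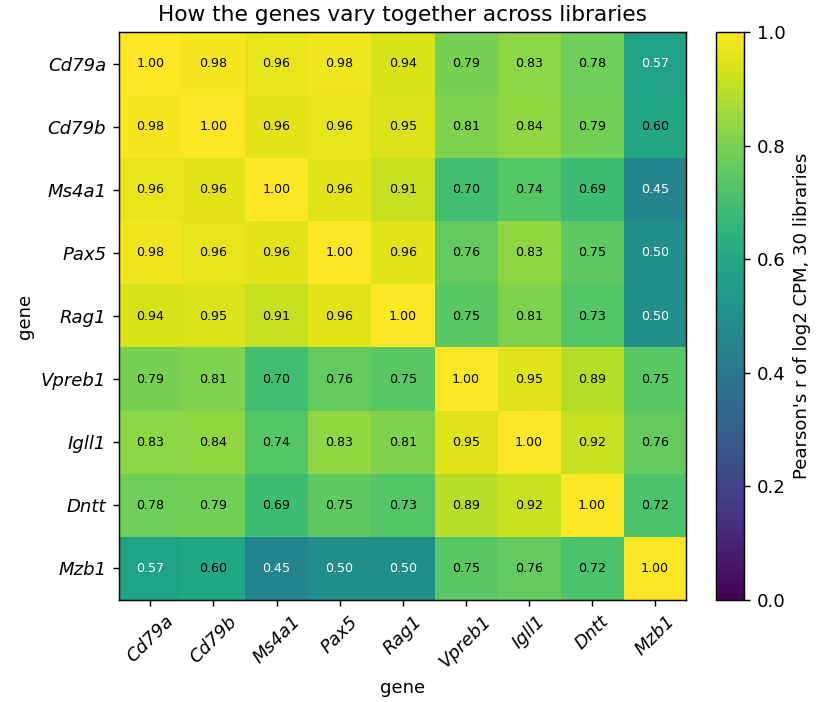
Pearson's r of log2 CPM over 30 libraries for each pair of genes, with colour from 0 to 1. Cd79a, Cd79b, Ms4a1, Pax5 and Rag1 form one block and Vpreb1, Igll1 and Dntt another, and Mzb1 has the lowest values, down to 0.45 with Ms4a1.

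Among 13796 other protein-coding genes whose mean level reached 1 CPM, the 5 most like Cd79a over the 30 libraries were Spib (r = 0.981), Pou2af1 (0.976), Chst3 (0.973), Blk (0.972) and Fcrla (0.967). Spib and Pou2af1 encode transcription regulators of B cells, and Blk a kinase of B cell receptor signalling. Chst3 encodes a sulfotransferase that acts on chondroitin. The 5 most like Vpreb1 were Ptprcap (0.848), Vpreb3 (0.834), Bfsp2 (0.825), Carmil2 (0.806) and Nxpe3 (0.803), of which Vpreb3 encodes a partner of immunoglobulin chains in B precursors and Ptprcap a partner of the leukocyte phosphatase CD45.

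Other genes of the lineage, taken from lists without the 9 members, were examined in the same fits. Of 21 further mature B cell genes tested at 6-dpf, 6 were higher and 0 lower, with a median log2 fold change of 1.18, beside a median of 0.01 over all genes, of which 5.31% were called higher. The largest changes past the threshold were in Fcmr, the receptor for IgM (1.59, adjusted p = 0.0444, edgeR), and Igkc, the kappa light chain (1.29, adjusted p = 0.00518). At 10-dpf 1 of the 21, Igkc (1.53, adjusted p = 0.0182), was higher and 0 lower, with a median of 0.63, where 3.01% of all genes were called higher, and at 14-dpf 1, Cd72 (1.86, adjusted p = 0.0495), was higher and 0 lower, with a median of 1.86 beside 0.04 over all genes. The 1 of 21 at 14-dpf is near the 4.28% of all genes called higher. At 3-dpf 0 were called and the median was -0.30.

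Of 17 further precursor genes, 5 were higher and 0 lower at 6-dpf (median 0.50), beside 5.31% of all genes called higher and 5.61% called lower, led by Il7r, the receptor for interleukin 7 (1.20, adjusted p = 0.0238, edgeR), and Flt3 (0.87, adjusted p = 0.0274). At 14-dpf 4 of 17 were higher and 1 lower (median 1.16), beside 4.28% of all genes called higher and 7.04% lower, with Il7r at 1.88 (adjusted p = 0.0107), Cd24a at 1.40 (adjusted p = 0.00156) and Myb at 1.37 (adjusted p = 0.0379). Il7r, Flt3, Cd24a and Myb are also expressed by other blood cells. At 10-dpf 2 of 16 were higher, Bst1 (0.85, adjusted p = 0.0294) and Flt3 (0.74, adjusted p = 0.0394), with a median of 0.42, beside 3.01% of all genes called higher and 3.44% lower, and at 3-dpf 0 of 17 were called (median -0.08).

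The plasma cell list was mixed. At 6-dpf 4 of its 18 further genes were higher and 1 lower, with a median of 0.65, beside 5.31% of all genes called higher and 5.61% called lower, and the 1 of 18 lower is near the latter. Ighg2c, a heavy chain of IgG, was higher by 2.48 (adjusted p = 0.0163, edgeR) and Jchain, which joins IgM and IgA, by 1.73 (adjusted p = 0.00386), while Fkbp11, a secretory pathway gene that osteoblasts also use, was lower (-1.06, adjusted p = 0.00223). At 10-dpf 7 of 18 were higher and 2 lower (median 0.55), beside 3.01% of all genes called higher and 3.44% lower, with Ighg2c at 1.99 (adjusted p = 0.0329), Jchain at 1.86 (adjusted p = 0.0169) and Igha at 1.84 (adjusted p = 0.0268). At 14-dpf 1 of 19 was higher and 4 lower while the median was 1.17, so that the share called higher was near the 4.28% of all genes, beside 7.04% called lower, and the largest called changes were in Fkbp11 (-1.90, adjusted p = 0.000920), Prdm1 (-1.23, adjusted p = 0.0385) and Sdc1 (-1.17, adjusted p = 0.00826). At 3-dpf 0 of 19 were called (median 0.04). Jchain stood at 11.8 to 25.9 CPM in WT and at 55.0 to 69.4 CPM in P-Apex1KO callus at 6-dpf. The groups did not overlap, an arrangement found for 8.71% of all genes tested on that day.

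Markers of other cells moved with these genes. At 6-dpf 11 of 19 T and NK cell genes were higher (median 1.16), as were 9 of 13 macrophage (0.80), 13 of 15 skeletal muscle (1.43) and 3 of 8 plasmacytoid dendritic cell genes (0.82), and 0 were lower in these lists, beside 5.31% of all genes called higher and 5.61% lower. Granulocyte precursor and erythroid genes had 0 calls of 14 each at 6-dpf (medians 0.12 and 0.37). All 15 cartilage genes (median -2.93) and 12 of 14 osteoblast genes (median -1.14) were lower. At 14-dpf 10 of 14 granulocyte precursor (1.24) and 8 of 14 erythroid genes (1.11) were higher, and 9 of 14 osteoblast genes were lower (-2.23). Of 15 cartilage genes 13 were higher and 2 lower in the fit (2.74), which is set against the 1 WT female, while their summed levels overlapped, 6453 to 7491 CPM in P-Apex1KO callus and 4793 to 9805 CPM in WT. The summed levels at 14-dpf were 3154 to 4029 CPM (granulocyte precursor) and 2418 to 2869 CPM (erythroid) in P-Apex1KO callus against 1467 to 2256 and 1089 to 1220 CPM in WT, so that marrow genes other than those of B cells were separated as well. Of T and NK genes 1 of 19 (median 1.16), of macrophage genes 7 higher and 2 lower of 13 (1.00), of plasmacytoid genes 2 higher and 1 lower of 8 (1.13) and of muscle genes 0 of 15 (0.90) were called at 14-dpf, beside 4.28% of all genes called higher and 7.04% lower, and the share of T and NK genes is near the former.

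At 10-dpf the same lists gave 4 of 19 T and NK genes higher (median 0.85), 7 higher and 1 lower of 13 macrophage genes (0.75), 1 of 15 muscle genes higher (1.52), 1 of 14 granulocyte precursor genes higher (0.97), 0 of 14 erythroid genes (0.46), 1 higher and 1 lower of 8 plasmacytoid genes (0.87), 0 of 15 cartilage genes (0.02) and 9 of 14 osteoblast genes lower (-0.95), beside 3.01% of all genes called higher and 3.44% lower. At 3-dpf 0 genes of any list were called, with medians from -0.39 for cartilage to 0.98 for muscle. Without the library labelled P-Apex1KO replicate 4 the median of the further mature B cell genes at 3-dpf was -0.96, that of the precursor genes -0.21 and that of the plasma cell genes -0.32, and 1 gene of the 12 lists was called, the macrophage gene Fcgr1, against 0.0504% of all genes. The part of these cells, of marrow content and of the bone and cartilage share of the callus in the levels of the B lineage genes was not tested. P-Apex1KO replicate 2 at 14-dpf, the library with the highest Cd79a, held 4029 CPM of granulocyte precursor and 2869 CPM of erythroid genes, beside 3355 and 3154 CPM and 2418 and 2813 CPM in replicates 1 and 3. Its mature B cell genes summed to 2812 CPM, beside 1017 and 836 CPM in replicates 1 and 3.

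**Figure D5:**
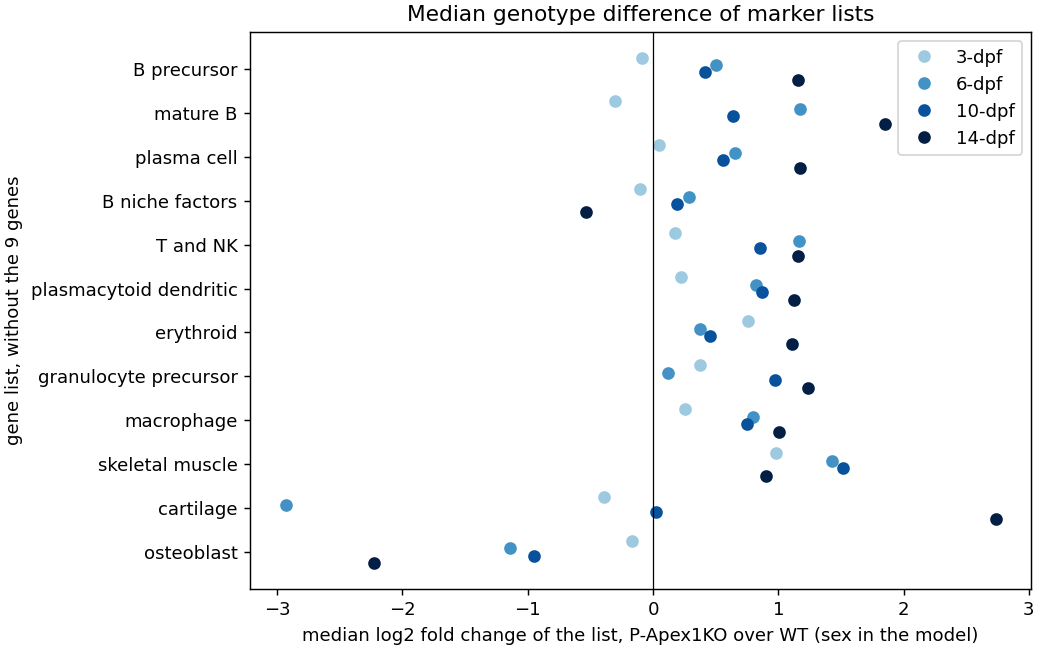
Median log2 fold change of P-Apex1KO over WT for 12 marker lists (rows, the 9 genes left out), with sex in the model and darker points for later days. The mature B cell list goes from -0.30 at 3-dpf to 1.18, 0.63 and 1.86 at 6-, 10- and 14-dpf, and the other blood cell lists are also above 0 at the 3 later time points.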

How the data were processed

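RNA of 30 calluses was read as stranded total RNA libraries depleted of ribosomal and globin RNA. The authors deposited raw counts per gene, made with bcl2fastq 2.20, STAR 2.7.0d (mm39) and featureCounts, which kept uniquely mapped reads of the reverse strand. Their notes also name DESeq2 1.32.0. All per-sample columns were mapped to samples by name. The 9 genes and the 12 marker lists were chosen with earlier results of these data known. Counts were tested with edgeR 4.0.16 (limma 3.58.1, R 4.3.3): filterByExpr, TMM scaling, a robust quasi-likelihood F test per time point with sex in the model, as in the study, and adjusted p-values (Benjamini-Hochberg) across every gene tested, at a threshold of 0.05. Time points were compared in 4-group models, separately for 3- and 6-dpf and for 10- and 14-dpf, because the sample names follow different series on these pairs of days. Libraries held 23476327 to 43111491 counts in the earlier series and 18334389 to 25185562 in the later. What the series stand for is not given by the labels. The correlations and the model of all 30 samples cross both. Levels are CPM scaled by TMM over all 30 libraries, so they need not match the fitted fold changes exactly. Log2 CPM used a prior count of 2. The fits were also run on simulated counts with known changes, of which 91.8% (14-dpf) to 100% (3-dpf) were recovered. The simulation used a single dispersion for all genes and no sex effect. It does not show how the fits perform on genes that vary more between mice. Gene positions come from GENCODE M39, in which 54749 of 55416 IDs were found. The text names the 9 genes, Apex1, up to 3 genes past the threshold with the largest change per list and time point, and the 5 genes most like Cd79a and Vpreb1. Beside edgeR, DESeq2 1.42.0, other scalings and filters, no sex term, a replicate block, all samples in one model and each mouse left out were tried. The comparison of the sexes, the ratio of precursor to mature reads, its form with Rag1, 1 alternative at 3-dpf and 1 of the change from 3- to 6-dpf were added after the data were seen. Libraries held 18334389 to 43111491 counts, and groups 3 to 5 mice. No 2 libraries were the same (highest correlation 0.989).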

Additional observations from a re-analysis of the deposited data

Results flagged for a closer look

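Of 45 sets of values tested, 1 gene in a group of 4 or 5 mice each, 3 held a value far from the others in its group. Chance gives about 1 in 20, or 2.25 of 45. Dntt stood at 1.29 CPM in the library labelled P-Apex1KO replicate 1 at 3-dpf, against 10.3 to 12.3 CPM in the other 3 of its label. Vpreb1 stood at 0.379 CPM in the same library, against 2.31 to 2.83 CPM. This library was also the lowest of its label in the granulocyte precursor (1099 CPM) and erythroid (250.2 CPM) sums. Dntt stood at 4.77 CPM in WT replicate 1 at 14-dpf, the only WT female of that day, against 8.45 to 9.31 CPM in the 3 WT males. Groups of 3 mice, which include the P-Apex1KO groups of 6-, 10- and 14-dpf, were not tested in this way, so the high levels of P-Apex1KO replicate 2 at 14-dpf do not appear here.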

How the results depend on the processing

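Of 958 single-gene values under alternatives, 857 kept their direction and side of the threshold, 38 newly passed it, 35 no longer passed it and 28 changed sign. The causes were not tested. At 6-dpf 4 members were called higher with sex in the model, 2 with no sex term, 2 with no filter on low counts, 8 with DESeq2, 1 with all 30 samples in one model and 0 to 6 with 1 mouse left out, beside 5.31%, 6.76%, 3.09%, 8.14%, 5.76% and 1.71% to 5.99% of all genes. At 10-dpf 0 were called, against 1 with DESeq2, 1 with no filter and 0 to 2 with 1 mouse left out (2 without WT replicate 4, 1 without P-Apex1KO replicate 2), beside 3.01%, 6.33%, 2.9% and 0.113% to 5.38% of all genes. At 14-dpf 0 were called, against 5 with no sex term, 4 with DESeq2 and 0 to 6 with 1 mouse left out (6 without P-Apex1KO replicate 2, 2 without replicate 3), beside 4.28%, 18.8%, 7.12% and 2% to 8.32% of all genes. With no sex term the 5 called became 3 to 7 with 1 mouse left out (3 without WT replicate 2), beside 12.6% to 18.3% of all genes. WT replicate 1 could not be left out at 14-dpf with sex in the model. With at least 10 counts in every sample 4 were called at 6-dpf, Cd79a among them and Mzb1 not tested, beside 6.55% of all genes. With a replicate block in place of sex 1 member was called at 6-dpf (Pax5) and 0 at 3-, 10- and 14-dpf, beside 1.25%, 0.00503%, 3.78% and 6.66% of all genes. Same-numbered mice share only a number (correlations of deviations -0.25 to 0.41).

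None of the values that changed sign had passed the threshold. Without the libraries labelled P-Apex1KO replicates 1 and 2, chosen after the data were seen, the 3-dpf log2 differences were 0.45 (Cd79a), 0.31 (Cd79b), 0.29 (Ms4a1), 0.35 (Pax5), 0.16 (Igll1), 0.44 (Rag1) and 0.051 (Dntt). With 1 mouse left out they ran from -0.54 to 0.092 for Igll1, -0.82 to 0.26 for Rag1, -0.41 to 0.17 for Dntt, -1.32 to 0.067 for Cd79a and -0.061 to 0.81 for Mzb1. At 10-dpf they ran from -0.035 to 1.07 for Ms4a1 and -0.029 to 0.64 for Pax5, and at 14-dpf with no sex term from -0.13 to 2.01 for Mzb1. The 10- to 14-dpf change ran from -0.47 to 0.25 for Vpreb1 (0.0100 with no sex term), -0.29 to 0.66 for Igll1 and -1.09 to 1.20 for Mzb1. Scaling by library size alone moved the median of all genes by 0.19 at 6-dpf and 0.27 at 14-dpf, and the members stayed above 0 at both, with 6 called at 6-dpf (13.7% of all genes) and 0 at 14-dpf (9.28%). Without the 3-dpf library labelled P-Apex1KO replicate 4, left out after the data were seen, 5 members were called higher at 6- than at 3-dpf in P-Apex1KO callus (12.5% of all genes called in either direction), against 0 with it (14%).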

Other observations

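A list of stromal genes and of factors that act on B cells, called niche genes here, was examined beside the lineage itself. The list is not specific to marrow. The part of the bone and cartilage share of the callus in these levels was not tested. At 6-dpf 3 of 12 were higher in P-Apex1KO callus and 1 lower, with a median log2 difference of 0.29, where 5.31% of all genes were called higher and 5.61% lower. Cxcl13, a chemokine that draws B cells, stood at 0.299 ± 0.132 CPM in WT (SD, n = 5) and 2.39 ± 0.411 CPM in P-Apex1KO callus (SD, n = 3), a log2 fold change of 3.04 (adjusted p = 0.00167, edgeR). Il7, the growth factor of B precursors, was higher by 0.95 (adjusted p = 0.0300) and Foxc1, a transcription factor of marrow stroma, was lower (-0.83, adjusted p = 0.0118).

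At 10-dpf 1 of 11 niche genes was higher, Vcam1 (0.65, adjusted p = 0.0173, edgeR), and 1 lower, Lepr (-0.42, adjusted p = 0.0395), with a median of 0.19, where 3.01% of all genes were called higher and 3.44% lower. At 14-dpf 1 of 12 was higher and 3 lower (median -0.53), where 4.28% of all genes were called higher and 7.04% lower. Tnfsf13b, the survival factor BAFF, was higher by 1.47 (adjusted p = 0.0246, edgeR), and Foxc1 (-1.46, adjusted p = 0.00969) and Lepr, which marks marrow stromal cells (-1.19, adjusted p = 0.0384), were lower. At 3-dpf 0 of 12 were called (median -0.10).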
